A study of Homo sapiens with 4 samples.

Results

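The mRNAs of 10 regulators of the G1 phase were followed in TU-177 cells with and without knockdown of SKA3. They are the D-type cyclins CCND1, CCND2 and CCND3, the E-type cyclins CCNE1 and CCNE2, the kinases CDK4, CDK6 and CDK2, and the inhibitors CDKN1B and CDKN2A. The genes were listed by name, with earlier results of these data known, so counts among them are descriptive. All 10 were found among the 28729 genes of the expression table. TU-177 is an established human cell line of laryngeal squamous cell carcinoma. The 4 RNA-seq libraries came from 2 negative control (NC) samples and 2 SKA3 knockdown (SKA3-KD) samples. Per the labels, both groups received a lentivirus, carrying either a control shRNA or an shRNA against SKA3, and both were selected with puromycin. The study's methods also describe a Cas9-based SKA3 knockdown in this line, and the shRNA of the labels is followed here. The labels name 1 knockdown group without an shRNA sequence and do not say whether replicates 1 and 2 were separate cultures. The p-values therefore set a group difference against a spread between samples that may be technical.

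D-type cyclins are made in response to growth signals and bind CDK4 or CDK6. These complexes phosphorylate the retinoblastoma protein, which releases E2F transcription factors, and cyclin E with CDK2 completes that step at entry into S phase. CDKN2A encodes INK4A, which blocks CDK4 and CDK6, and from another reading frame ARF, which acts through MDM2 and p53. CDKN1B encodes KIP1, which holds cyclin E-CDK2 in check. In squamous carcinomas of the head and neck, gain of CCND1 and loss of CDKN2A are well-known lesions.

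In SKA3-KD the mRNAs of CCND1, CCND3 and CDK6 were higher and that of CCNE1 was lower. CDK6 rose 2.03-fold, CCND3 1.7-fold and CCND1 1.62-fold in mean FPKM, while CCNE1 fell to 0.71 of its NC mean. FPKM is the number of fragments per kilobase of gene, corrected for library size, so levels of different genes can be set side by side. CDK4, CDK2, CCNE2, CDKN1B and CDKN2A did not pass the test, and CCND2 was hardly expressed. In total, 9 of the 10 genes were tested, each of them above 1 FPKM in every library, and 3 were higher and 1 was lower at an adjusted p-value under 0.05 (limma on log2(FPKM + 1), Benjamini-Hochberg over 12645 genes). Among all genes tested, 6.16% were higher and 6.11% lower by the same rule. The groups did not overlap in 7 of the 9 genes, 3 higher and 4 lower, against 61.6% of all genes tested (32.3% higher and 29.2% lower). An exact permutation test of 2 against 2 libraries cannot give a p-value below 0.333, so that the adjusted p-values rest on the spread limma estimates across genes. Because these are bulk libraries, a change in the share of cells in a cell cycle phase and a change in mRNA per cell cannot be told apart.

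The targeted gene was lower in both knockdown libraries. SKA3 (ENSG00000165480), a kinetochore subunit, was at 9.40 and 9.64 FPKM in NC against 3.77 and 4.12 in SKA3-KD. Its log2 fold change was -1.09 (SE 0.07, the standard error of the fit, and limma adjusted p = 0.00806). The labelled squamous origin was less clear in the marker genes. The keratins KRT5, KRT14 and KRT6A did not exceed 0.103 FPKM in any library, and TP63 lay between 0.348 and 0.58. CDH1 lay between 0.149 and 0.447. KRT17 was between 29.4 and 49.1 FPKM and fell in SKA3-KD (log2 fold change -0.53, limma adjusted p = 0.0396), SFN was between 133 and 155 FPKM, and EPCAM between 2.73 and 2.95. The 6 fibroblast markers summed to 15.4 and 15.8 FPKM in NC and to 8.86 and 9.56 in SKA3-KD. Most of that difference was in DCN, and COL1A2 was listed at 0 in 3 libraries. DCN, which encodes decorin, fell from 8.40 and 8.36 to 2.48 and 2.35 FPKM (limma adjusted p = 0.0065). PDGFRB, a fibroblast marker named after its values were seen, was at 2.88 and 2.46 FPKM in NC and at 3.19 and 4.13 in SKA3-KD (log2 fold change 0.34, limma adjusted p = 0.165). With limma voom, 1 fibroblast marker was higher and 2 were lower. Leukocyte markers summed to at most 1.38 FPKM and endothelial markers to at most 0.0968. The part of these differences in the results below was not tested.

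The promoters of 3 of the 4 genes past the threshold are shown with that of CDK4, the partner kinase of CDK6 that did not pass. RefSeq windows (GRCh38.p14) of 250 bases before to 50 bases after a start site were at hand for 6 of the 10 genes. Those of CCND1, CCND2, CCNE2 and CDK2 are not shown. For CCND3, with several starts, the window with most GENCODE 29 transcript starts was taken, and for CDK6, where its 2 windows held 1 start each, the upstream one. Gene-level FPKM does not tell which start was used. The sequences run 5′ to 3′ on the strand of the gene, with every match to a searched motif in capitals.
CCND3 (chr6:42048639-42048938, minus strand): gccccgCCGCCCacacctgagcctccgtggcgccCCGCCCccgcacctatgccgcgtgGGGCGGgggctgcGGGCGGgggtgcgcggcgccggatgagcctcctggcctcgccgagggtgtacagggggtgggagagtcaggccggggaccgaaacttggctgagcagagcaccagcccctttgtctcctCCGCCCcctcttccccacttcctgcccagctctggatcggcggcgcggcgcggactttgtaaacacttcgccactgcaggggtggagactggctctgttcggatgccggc
CDK6 (chr7:92836524-92836823, minus strand): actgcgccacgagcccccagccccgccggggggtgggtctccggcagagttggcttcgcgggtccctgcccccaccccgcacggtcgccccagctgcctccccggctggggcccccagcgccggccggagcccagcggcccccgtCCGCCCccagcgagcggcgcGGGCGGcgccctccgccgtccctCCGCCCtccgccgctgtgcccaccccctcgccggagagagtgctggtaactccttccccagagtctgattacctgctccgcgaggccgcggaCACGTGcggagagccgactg
CDK4 (chr12:57752261-57752560, minus strand): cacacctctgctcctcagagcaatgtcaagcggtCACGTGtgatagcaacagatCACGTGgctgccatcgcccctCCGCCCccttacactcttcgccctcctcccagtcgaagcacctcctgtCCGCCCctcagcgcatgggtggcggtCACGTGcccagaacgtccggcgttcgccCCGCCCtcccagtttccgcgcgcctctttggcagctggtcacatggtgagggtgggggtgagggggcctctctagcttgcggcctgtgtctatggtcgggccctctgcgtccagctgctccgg
CCNE1 (chr19:29811741-29812040, plus strand): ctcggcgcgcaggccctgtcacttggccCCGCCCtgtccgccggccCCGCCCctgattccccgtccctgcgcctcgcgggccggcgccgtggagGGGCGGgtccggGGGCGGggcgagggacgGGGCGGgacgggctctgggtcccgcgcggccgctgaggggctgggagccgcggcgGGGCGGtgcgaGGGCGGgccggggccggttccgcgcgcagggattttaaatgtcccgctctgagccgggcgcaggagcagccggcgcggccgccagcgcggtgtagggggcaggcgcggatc
The motifs were searched on both strands. They were the GC box GGGCGG, the CCAAT box, the E-box CACGTG, the TATA box TATAAA, and the E2F core, which was spelled TTCCCGC in the first form, TTGGCGC in the next form, TTCGCGC in another form and TTGCCGC in the last form. The AP-1 site TGACTCA or TGAGTCA and the cell cycle homology region TTTGAA or TTCGAA were also searched. GC boxes stood 5 times in the CCND3 window, 3 times in that of CDK6, 3 times in that of CDK4 and 7 times in that of CCNE1, where 45% of all 35116 promoter windows held at least 1. The E-box, the binding sequence of MYC with MAX, occurred 3 times in the CDK4 window and 1 time in the CDK6 window, and in 7.26% of all windows. None of the 10 windows of the 6 genes held the E2F core as spelled here, which 13% of all windows did. The 4 windows were GC-rich, with 72.3% G or C for CCND3, 78% for CDK6, 66% for CDK4 and 81% for CCNE1, against a median of 58.7%. A match describes the letters in the window and is no evidence of binding.

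D-type cyclins. CCND3 (ENSG00000112576; chromosome 6 of GRCh38, 41934933 to 42050357, minus strand) was the most abundant of the D-type cyclins. It was at 37.9 FPKM in NC 1 and 40.9 in NC 2, and at 65.2 in SKA3-KD 1 and 68.6 in SKA3-KD 2. Behind them were 2402, 1953, 3519 and 4288 reads, recovered from the steps in which FPKM values move. Both SKA3-KD libraries lay far above both NC libraries, by more than the gap within either pair. The means were 39.4 ± 2.12 and 66.9 ± 2.38 FPKM (SD, n = 2 each), and the log2 fold change was 0.75 (SE 0.07 and limma adjusted p = 0.0103). It was the 151st largest rise among 12645 genes.

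CCND1 (ENSG00000110092; chromosome 11, 69641087 to 69654474, plus strand), the cyclin most often gained in these tumors, had lower levels than CCND3 and moved by a similar factor. Its values were 18.1 and 18.8 FPKM in NC and 31.4 and 28.5 FPKM in SKA3-KD, on 1049, 820, 1542 and 1622 reads. The knockdown libraries were again both higher, with SKA3-KD 1 above SKA3-KD 2. The log2 fold change was 0.66 (SE 0.07 and limma adjusted p = 0.0136), with 0.73 for SKA3-KD 1 and 0.60 for SKA3-KD 2, each relative to the NC mean. On the opposite strand, LTO1 covers 10.3% of the exon bases of CCND1, and whether the counting used strand is not given in the sources used here. LTO1 itself was between 1.71 and 2.13 FPKM (log2 fold change -0.15, limma adjusted p = 0.429).

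CCND2 (ENSG00000118971; chromosome 12, 4273772 to 4305350, plus strand) was close to absent. It held 6 and 5 reads in NC and 5 reads and 1 read in SKA3-KD, or 0.0701, 0.0775, 0.0686 and 0.0118 FPKM. The read ratio of SKA3-KD to NC was 0.521, with a 95% interval of 0.158 to 1.54 (exact binomial, counting error only), so that no difference was detectable at this depth. Without the filter on low values its log2 fold change was -0.05 (limma adjusted p = 0.708).

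The D-type pool therefore grew without a clear shift in its make-up. The 3 cyclins summed to 56.1 and 59.8 FPKM in NC and to 96.7 and 97.1 FPKM in SKA3-KD, a 1.67-fold difference in means that exceeded the spread within the groups (exact permutation p = 0.333, the smallest possible). CCND1 made up 32.4% and 31.5% of that sum in NC, and 32.4% and 29.3% in SKA3-KD, so that the groups overlapped (exact permutation p = 1). CCND3 supplied nearly all of the remainder, with 67.5% to 70.7% over the 4 libraries.

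**Figure D1:**
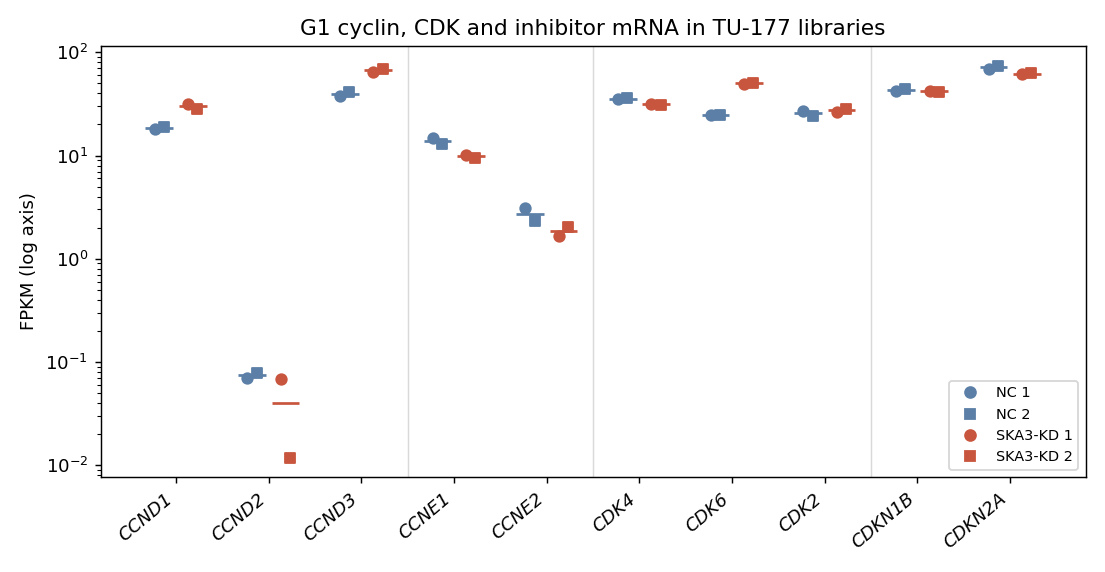
FPKM on a log axis of the 10 genes in each library, with circles for replicate 1, squares for replicate 2 and short lines for the group means (blue NC, red SKA3-KD); thin vertical lines part D-type cyclins, E-type cyclins, kinases and inhibitors. The SKA3-KD points of CCND1, CCND3 and CDK6 lie above the NC points. Those of CCNE1, CCNE2, CDK4 and CDKN2A lie below, and CCND2 lies under 0.1 FPKM throughout.

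E-type cyclins. CCNE1 (ENSG00000105173; chromosome 19, 29811898 to 29824308, plus strand), the partner of CDK2 at the G1/S transition, was at 14.8 and 12.8 FPKM in NC and fell to 10.2 and 9.44 FPKM in SKA3-KD. Reads numbered 455, 297, 266 and 286. Both knockdown libraries were below the lower NC library, although the NC pair itself differed by more than the SKA3-KD pair. Means were 13.8 ± 1.4 and 9.81 ± 0.519 FPKM (SD, n = 2 each), with a log2 fold change of -0.45 (SE 0.09 and limma adjusted p = 0.0407). This was the 862nd largest fall of 12645 genes.

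CCNE2 (ENSG00000175305; chromosome 8, 94879770 to 94896678, minus strand), the second E-type cyclin, was expressed at a lower level. It was at 3.12 and 2.32 FPKM in NC and 1.65 and 2.02 FPKM in SKA3-KD, on 164, 92, 74 and 105 reads. The groups did not overlap, but the gap between NC 2 and SKA3-KD 2 was smaller than the gap within the NC pair. The log2 fold change of -0.38 (95% interval -0.78 to 0.01) did not pass (limma adjusted p = 0.165). On the recovered reads, limma voom gave a log2 fold change of -0.57, which passed (adjusted p = 0.0272). INTS8 covers 37% of the exon bases of CCNE2 on the opposite strand and was at 5.83 to 7.21 FPKM in the 4 libraries, above CCNE2, so that the CCNE2 values are uncertain.

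Together the E-type cyclins summed to 17.9 and 15.1 FPKM in NC and to 11.8 and 11.5 FPKM in SKA3-KD. CCNE1 made up 82.4% to 86% of the sum over the 4 libraries, and the groups overlapped in this share. The ratio of D-type to E-type cyclin FPKM was 3.13 and 3.95 in NC against 8.17 and 8.47 in SKA3-KD. It was 2.35-fold higher in SKA3-KD (exact permutation p = 0.333, the smallest possible), with a gap between the groups larger than either within-group gap.

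Kinases. CDK6 (ENSG00000105810; chromosome 7, 92604921 to 92836594, minus strand) showed the largest difference of the 9 genes tested. Its FPKM was 24.7 in both NC libraries and 49.4 and 50.8 in SKA3-KD, on 3626, 2732, 6169 and 7344 reads. Replicates of each group were nearly equal, and the groups were 2.03-fold apart. The log2 fold change was 0.99 (SE 0.06 and limma adjusted p = 0.0065), the 64th largest rise of 12645 genes. An antisense transcript, AC002454.1, covers 0.661% of the exon bases of CDK6. It was at 0.501 and 0.166 FPKM in NC and at 1.33 and 0.89 in SKA3-KD, on 4, 1, 9 and 7 reads.

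CDK4 (ENSG00000135446; chromosome 12, 57747727 to 57756013, minus strand), which binds the same cyclins, was at 35.0 and 36.1 FPKM in NC and 31.6 and 31.2 FPKM in SKA3-KD. The SKA3-KD libraries were slightly lower without overlap, and the log2 fold change of -0.18 (95% interval -0.32 to -0.03) did not pass (unadjusted p = 0.0254, limma adjusted p = 0.108). TSPAN31 on the opposite strand covers 43.2% of the exon bases of CDK4. It was at 3.21 to 3.85 FPKM and had a log2 fold change of 0.01 (limma adjusted p = 0.941).

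The order of both cyclin D kinases turned around between the groups. CDK6 made up 41.4% and 40.7% of the summed FPKM of CDK4 and CDK6 in NC, and 61% and 62% in SKA3-KD. The sum was 59.7 and 60.8 FPKM in NC and 81 and 81.9 FPKM in SKA3-KD, higher by a factor of 1.35. In both quantities the groups were separated by far more than the replicates (exact permutation p = 0.333 for each, the smallest possible). D-type cyclin FPKM per unit of CDK4 plus CDK6 was 0.939 and 0.984 in NC and 1.19 and 1.18 in SKA3-KD.

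CDK2 (ENSG00000123374; chromosome 12, 55966769 to 55972784, plus strand), the kinase of cyclin E, was at 27.3 and 24.4 FPKM in NC and 26.7 and 28.1 FPKM in SKA3-KD. The groups overlapped, and the log2 fold change was 0.08 (95% interval -0.11 to 0.28, limma adjusted p = 0.506). An antisense gene not analysed here, AC025162.1, covers 14.5% of the CDK2 exon bases. CCNE1 FPKM per CDK2 FPKM was 0.543 and 0.526 in NC and 0.382 and 0.336 in SKA3-KD, and the groups did not overlap.

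**Figure D2:**
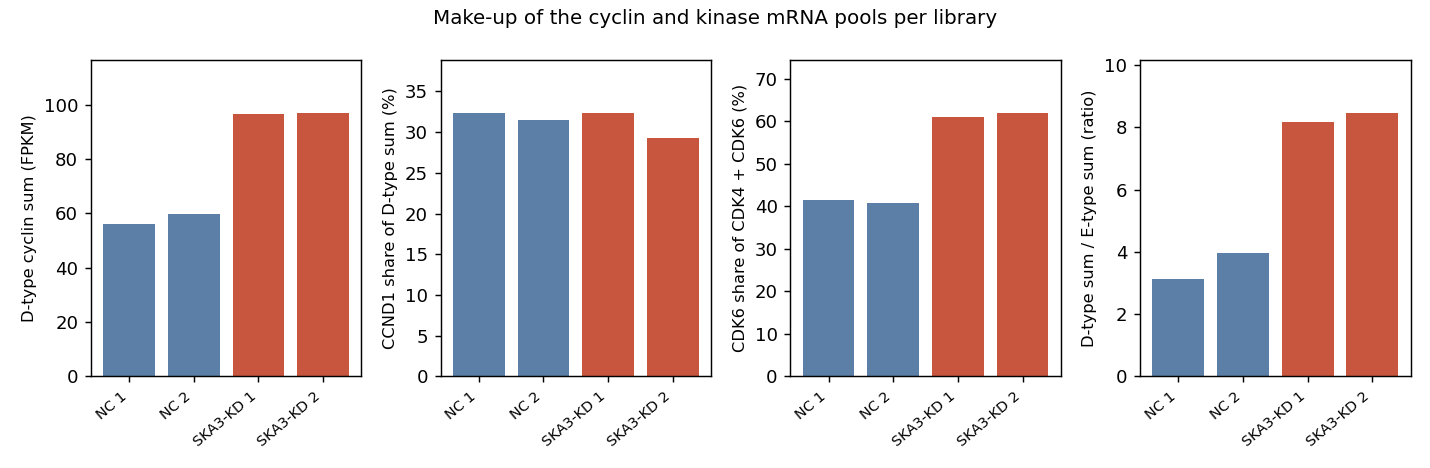
Bars starting at 0 for each library (blue NC, red SKA3-KD) of summed D-type cyclin FPKM, the CCND1 share of that sum in percent, the CDK6 share of CDK4 plus CDK6 FPKM in percent, and the ratio of D-type to E-type cyclin FPKM. The sum, the CDK6 share and the ratio are higher in both SKA3-KD bars, while the CCND1 share lies between 29.3% and 32.4% in all 4 libraries.

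Inhibitors. CDKN1B (ENSG00000111276; chromosome 12, 12715058 to 12722371, plus strand) was at 42.2 and 43.9 FPKM in NC and 42.5 and 41.7 FPKM in SKA3-KD. The groups overlapped, with a log2 fold change of -0.03 (95% interval -0.18 to 0.11, limma adjusted p = 0.741). CDKN2A (ENSG00000147889; chromosome 9, 21967753 to 21995301, minus strand) was at 68.9 and 74.6 FPKM in NC and at 61.3 and 63.2 FPKM in SKA3-KD. Both knockdown libraries were lower, and the log2 fold change of -0.20 (95% interval -0.37 to -0.04) did not pass (unadjusted p = 0.0251, limma adjusted p = 0.108). On the recovered reads, limma voom gave the same log2 fold change, -0.20, and it passed (adjusted p = 0.0337). The table holds 1 value per gene, so that INK4A and ARF transcripts are not separated. The antisense gene CDKN2B-AS1 covers 7.88% of its exon bases and was at 0.554 to 0.866 FPKM.

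The ratios of inhibitor mRNA to cyclin and kinase mRNA differed in direction. CDKN2A FPKM per unit of CDK4 plus CDK6 was 1.15 and 1.23 in NC and 0.756 and 0.771 in SKA3-KD. CDKN1B FPKM per unit of D-type cyclin was 0.753 and 0.734 in NC and 0.439 and 0.43 in SKA3-KD. Both were lower in SKA3-KD. CDKN1B FPKM per unit of E-type cyclin was higher, at 2.36 and 2.9 in NC and 3.59 and 3.64 in SKA3-KD. In these 3 ratios the groups did not overlap (exact permutation p = 0.333 for each, the smallest possible). CDKN1B itself hardly differed (log2 fold change -0.03), so its ratios to the cyclins restate the differences in the cyclin sums. CDKN1B FPKM per CDK2 FPKM was 1.55 and 1.8 in NC and 1.59 and 1.48 in SKA3-KD, and the groups overlapped (exact permutation p = 0.667). These are ratios of mRNA levels, and protein amounts were not measured in these libraries.

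Ranked by FPKM, the NC libraries ran CDKN2A, CDKN1B, CCND3 and CDK4, followed by CDK2 and CDK6, which exchanged places between NC 1 and NC 2, and then CCND1, CCNE1, CCNE2 and CCND2. In both SKA3-KD libraries the order was CCND3, CDKN2A, CDK6, CDKN1B, CDK4, CCND1, CDK2, CCNE1, CCNE2 and CCND2. CCND3 thus stood at rank 3 in NC and rank 1 in SKA3-KD, where its 2 values lay above the 2 values of CDKN2A. The values of CDK4 and CCND1 in SKA3-KD, at means of 31.4 ± 0.295 and 29.9 ± 2.05 FPKM (SD, n = 2 each), overlapped and do not differ beyond their spread. CDK2 and CDK6 in NC, at 25.8 ± 2.01 and 24.7 ± 0.00154 FPKM (SD, n = 2 each), were likewise not separated.

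**Figure D3:**
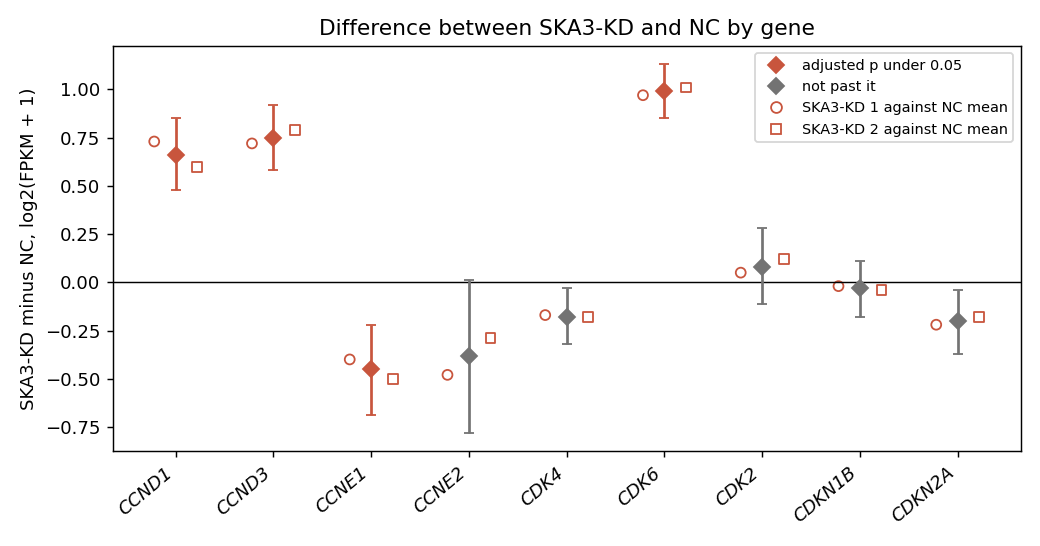
Log2 fold change of SKA3-KD against NC on the log2(FPKM + 1) scale for the 9 genes tested, as diamonds with 95% intervals from limma (red past an adjusted p-value of 0.05, grey not past it), with open circles for SKA3-KD 1 and open squares for SKA3-KD 2, each against the NC mean. CDK6 (0.99), CCND3 (0.75) and CCND1 (0.66) are above 0, CCNE1 (-0.45) is below, and the open symbols lie on the same side of 0 for each gene.

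The calls were tied to the number of libraries. Leaving out any 1 library left the log2 fold change of CDK6 between 0.97 and 1.01, but its adjusted p-value was 0.0660 without NC 1 and 0.0600 without NC 2 (limma). CCND3 was at 0.0530 to 0.0676 when any library was left out, CCND1 passed only without SKA3-KD 2 (0.0491, otherwise 0.0641 to 0.0769), and CCNE1 was at 0.0734 to 0.153. Without the filter on low values, CCND1 was at 0.0548 and CCNE1 at 0.115, and without the mean-variance trend CCNE1 was at 0.0733 (adjusted p-values, limma).

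Genes that act next to these regulators were read from lists, which hold 108 tested genes in all, of which 14 were higher and 3 lower. With any 1 library left out, 0 or 1 of them was higher and 0 lower at an adjusted p-value under 0.05, and 19 to 26 higher and 6 to 14 lower at an unadjusted one (limma). The RB and E2F family includes the targets of the cyclin D kinases and the factors they release, though not every member is one of these. It held 13 tested genes with a median log2 fold change of -0.06, against 0.01 over all genes tested. None of them was past an adjusted p-value of 0.05 (limma). At an unadjusted p-value under 0.05, 4 were lower and 0 higher, and limma voom also called 4 lower and 0 higher. Over all genes tested, 16.2% were higher and 15.1% lower at an unadjusted p-value under 0.05, and limma voom called 13.8% higher and 12.2% lower. E2F8 (-0.39, limma adjusted p = 0.145) and E2F2 (-0.28, limma adjusted p = 0.124) had the largest differences in size. RB1, named here after its values were seen, was at 20.6 and 17.8 FPKM in NC and at 15.1 and 16.1 in SKA3-KD (limma adjusted p = 0.106). E2F3 (-0.26, limma adjusted p = 0.0613) and E2F1 (0.06, limma adjusted p = 0.56) were also named after their values were seen.

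Of 6 other CDK inhibitors, CDKN1A, the CIP1 inhibitor induced by p53, was the 1 gene past the threshold. It fell from 40.2 and 42.3 FPKM in NC to 31.4 and 31.3 FPKM in SKA3-KD (log2 fold change -0.38, limma adjusted p = 0.0238), without overlap. The median of the 6 was 0.15. At an unadjusted p-value under 0.05, 2 were higher and 1 lower, and limma voom called 1 higher and 1 lower. The INK4 genes CDKN2D and CDKN2B are named here after their values were seen. CDKN2D was at 2.45 and 1.7 FPKM in NC and at 4.18 and 3.16 in SKA3-KD (log2 fold change 0.61, limma adjusted p = 0.0874). CDKN2B was at 11.7 and 12 FPKM in NC and at 13.9 in both SKA3-KD libraries (log2 fold change 0.22, limma adjusted p = 0.0832). Of 15 tested genes of CDK activation and of the ubiquitin ligases that act on G1 regulators, CDC37 alone passed with limma on log2(FPKM + 1). CDC37, the co-chaperone that loads CDK4 and CDK6 onto HSP90, rose from 47.8 and 49.1 to 59.2 and 58.3 FPKM (log2 fold change 0.27, limma adjusted p = 0.0393). The median of the 15 was 0.12, and at an unadjusted p-value under 0.05, 5 were higher and 0 lower (limma). With limma voom, 3 were higher and 0 lower.

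Of the E2F target genes of the G1/S transition 19 were tested, of which 4 rose, 0 fell and 15 did not pass (limma), with a median of 0.01. At an unadjusted p-value under 0.05, 4 were higher and 4 lower, and limma voom called 4 higher and 2 lower. The genes that rose were MYBL2 (0.62), a transcription factor, RRM2 (0.54), a ribonucleotide reductase subunit, MCM6 (0.51), a helicase subunit, and CCNA2 (0.39), cyclin A, for which limma gave adjusted p-values of 0.0119, 0.0129, 0.0230 and 0.0352. CCNA2, the cyclin that follows cyclin E, was at 27.0 and 26.0 FPKM in NC and at 36.7 and 33.2 FPKM in SKA3-KD, the opposite direction to CCNE1. The 4 lower at an unadjusted p-value, in the direction of CCNE1, were ORC1 (-0.28), MCM3 (-0.23), PCNA (-0.17) and CDC6 (-0.14). They were named after their values were seen, and limma gave adjusted p-values of 0.0683, 0.0571, 0.108 and 0.154.

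Of 12 tested genes of G2 and mitosis, 7 rose, 0 fell and 5 did not pass (limma). The median was 0.37, and at an unadjusted p-value under 0.05 the counts were 9 and 0, as they were with limma voom. PLK1 (0.76), CCNB1 (0.64), CDC20 (0.54) and AURKA (0.54) had the largest log2 fold changes. CDK1 (-0.04, limma adjusted p = 0.808) and MKI67 (0.05, limma adjusted p = 0.602), named after their values were seen, were among the 5 that did not pass. The list summed to 576 and 539 FPKM in NC and to 748 and 717 FPKM in SKA3-KD. The part of the cell cycle phases in the values of the G1 genes was not tested.

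Among 22 tested genes of other CDKs and cyclins, some of them tied to transcription, CCNG1 (-0.36, limma adjusted p = 0.0495) was lower and none was higher. The median of the 22 was 0.01. At an unadjusted p-value under 0.05, 2 were higher and 2 lower, and limma voom called 1 higher and 4 lower. Genes through which growth signals reach the D-type cyclins had a median of 0.05 over 21 genes, with 2 higher and 1 lower. At an unadjusted p-value under 0.05, 7 were higher and 5 lower, and limma voom also called 7 higher and 5 lower. FOSL1, an AP-1 subunit, rose from 5.40 and 5.70 FPKM to 13.7 and 11.4 FPKM (log2 fold change 1.05, limma adjusted p = 0.0115). The AP-1 genes FOSL2 and JUN, named after their values were seen, did not pass and differed in direction. FOSL2 was at 47.9 and 54.5 FPKM in NC and at 37.6 and 43 in SKA3-KD (-0.34, limma adjusted p = 0.0881). JUN was at 8.83 and 12.7 FPKM in NC and at 14.5 and 16.6 in SKA3-KD (0.51, limma adjusted p = 0.124). EGFR, a growth factor receptor, rose from 42.8 and 44.7 to 64.1 and 71.2 FPKM (0.62, limma adjusted p = 0.0152). MYC fell from 77.7 and 83.9 to 57.7 and 62.7 FPKM (-0.42, limma adjusted p = 0.0301).

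**Figure D4:**
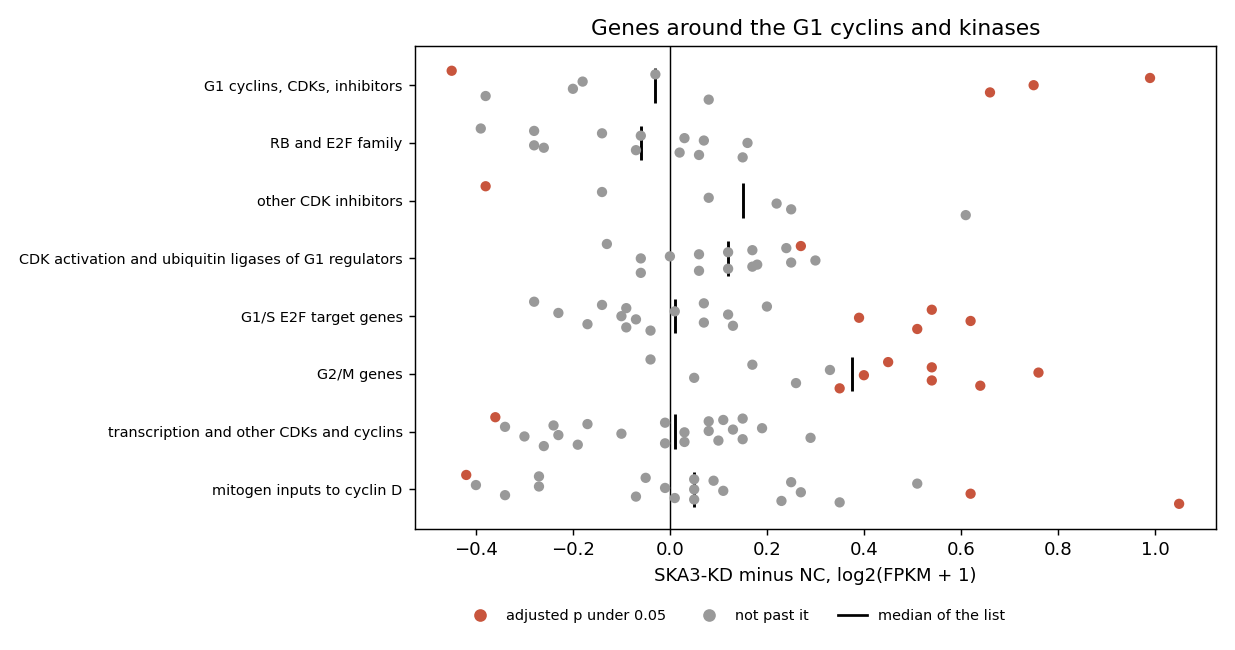
Log2 fold change of SKA3-KD against NC on the log2(FPKM + 1) scale for each tested gene of the 10 G1 regulators and of 7 lists around them (red past an adjusted p-value of 0.05, grey not past it, black line for the median; vertical scatter only separates points). Red points are CDK6, CCND3, CCND1 and CCNE1 in the first row, and 7 of the 12 genes of G2 and mitosis lie to the right of 0 in red.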

How the data were processed

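The 4 libraries were grouped by their labels, 2 NC and 2 SKA3-KD. The authors deposited FPKM values per Ensembl gene. The submitters' processing notes name hg19, Bowtie2 2.2.8, HISAT2, StringTie 1.3.1 and Cuffdiff 2.1.1, without saying which made the values. Symbols, GRCh38 positions and exon lengths came from GENCODE 29. Whole reads were recovered from the FPKM steps within 0.02 of a whole number, for 6 of the 10 genes with the GENCODE exon length and for 4 from the proportions between libraries. Library sizes were estimated from the same steps, at 9015056 to 11966130 reads. In each library the recovered reads summed over genes were above this size (12336768 against 11966130 in NC 1). Read numbers are therefore estimates. Replicates differed by more than sampling noise (chi-square per degree of freedom 3.83 in NC and 3.80 in SKA3-KD).

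The 12645 genes averaging 1 FPKM or more were tested on log2(FPKM + 1) with limma 3.58.1 (R 4.3.3), using lmFit and trended eBayes, with Benjamini-Hochberg adjustment and a threshold of 0.05. A fold change on this scale understates that of low genes. Sums and ratios were compared by two-sided exact permutation tests. The alternatives were a pseudocount of 0.1, other filters, 2 scalings, other variance models, a replicate block, limma voom on the recovered reads and leaving out each library. Only the main limma fit was tried on simulated data. The members and lists were chosen with earlier results of these data known. Named from each list were up to 4 genes past the threshold with the largest change, or 2 where none passed. Python 3.11.15 served for other steps.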

Additional observations from a re-analysis of the deposited data

How the results depend on the processing

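SKA3 kept its direction in every setting and was past the threshold in each with all 4 libraries (-1.26 to -1.09 on the log2 scale); leaving out 1 library gave -1.14 to -1.04, with adjusted p-values of 0.0660 without NC 1 and 0.0600 without NC 2 (limma). The 9 tested G1 genes kept the sign of their difference in every setting that tested them, and CCNE2 was not tested with a mean FPKM of at least 5. CDK6 (0.97 to 1.02) and CCND3 (0.74 to 0.77) passed under each alternative with all 4 libraries.

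Counts moved more. For higher and lower genes over the whole table, 779 and 772 became 48 and 81 without the filter, 312 and 381 without the trend, and 1750 and 1547 with limma voom. Leaving out a library left 0 to 46 higher and 0 to 135 lower, the zeros without NC 1 or NC 2 (limma; 3124 and 3352 genes at an unadjusted p-value under 0.05). Lone libraries were assumed to vary like the other group. Among the G1 genes, the 1 lower call became 0 without the filter (3 unadjusted) and 0 without the trend (2 unadjusted) and 3 with limma voom. Without 1 library, 0 to 2 were higher and 0 lower (1 to 3 lower unadjusted). Over the 7 pathway lists, 14 higher and 3 lower became 4 and 0 without the filter (15 lower unadjusted), 8 and 0 without the trend (16 lower unadjusted), and 25 and 16 with limma voom. The lower count was 10 with a mean FPKM of at least 5. Leaving out a library gave 0 to 1 higher and 0 lower (6 to 14 lower unadjusted).

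With the replicate block, the counts over the whole table were 1002 and 965, over the G1 genes 3 and 1, and over the lists 20 and 7. The replicate numbers are not said to mark a shared culture, and the deviations of same-numbered libraries correlated at 0.0973 across genes. Another scaling moved the median of all genes by about 0.01.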
